A study of Mus musculus with 12 samples.

Results

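Immediate early response genes are transcribed within minutes of a stimulus from factors that the cell already holds. Mouse symbols named 36 such genes for this account. All 36 were found in the count table by their Entrez Gene identifier, and all 36 reached a level of at least 1 CPM (reads of the gene, scaled to a common library total) in 3 or more libraries. The whole table holds 27179 genes, of which 12395 reached that level and 13415 were tested. RNA sequencing had been done on splenic conventional dendritic cells of 2 kinds, type 1 (cDC1) and type 2 (cDC2), in female C57/BL6 mice. For each kind wild-type mice (WT) gave 3 libraries, and mice of genotype Zfp366-/- (KO) gave 3, which lack the gene of the zinc finger protein DC-SCRIPT by that label. KO stands below for the libraries with that label. The 12 libraries came from 6 mouse pools, 3 per genotype, which the labels call biological replicates. Both subsets were sequenced from every pool. All spleens, WT and KO, had been digested with collagenase and DNAse, and no stimulus is named for any group. The part of the digestion in the levels below was not tested. The ages of the mice, the number of mice in a pool and the gates of the sort are not given in the sources used here.

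Most immediate early genes respond to MAP kinase, calcium, cytokine or Toll-like receptor signals. Serum response factor, CREB and NF-kB, which are present in resting cells and are switched on without new protein synthesis, drive them. Their products are of 2 broad kinds: transcription factors such as AP-1, EGR and NR4A proteins pass the signal on, and proteins such as the dual-specificity phosphatases, tristetraprolin, A20 and the IkB proteins shut it off. In dendritic cells these genes are known as early marks of activation by microbial ligands and cytokines.

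Total counts ran from 11330503 to 36761685 reads per library. Zfp366 itself stood at 152, 89.2 and 67.5 CPM in the WT cDC1 libraries numbered 1, 2 and 3, and at 48.8, 48.3 and 45.4 CPM in cDC1 KO, a log2 fold change of -1.12 (SE 0.27, adjusted p = 0.0326). In cDC2 it stood at 52.5, 62.4 and 57.4 CPM in WT and at 55.0, 80.5 and 65.1 CPM in KO (0.22, SE 0.27, adjusted p = 1). Counts per gene do not show which exons the reads cover, and the deleted part is not given in the sources used here, so these values do not check the genotype label. The subset labels did match the markers: all 7 cDC1 markers, Xcr1 and Clec9a among them, were higher in WT cDC1 and all 7 cDC2 markers, Sirpa and Irf4 among them, were higher in WT cDC2. The cDC1 markers summed to 4692 to 6009 CPM in cDC1 WT, 29.0 to 199 CPM in cDC2 WT and 58.4 to 80.6 CPM in cDC2 KO. The 199 CPM belong to cDC2 WT replicate 1. Libraries whose title carries the number 1 stood apart from those numbered 2 and 3 in all 4 groups. Between libraries 1 and 2 or 3 of a group the chi-square of the counts per degree of freedom was 72.2 to 432, and between libraries 2 and 3 it was 14.5 to 56.6. The labels do not say what the number stands for, so the genotype and subset results below are also given without the libraries numbered 1. Those fits have 2 libraries a group, known beforehand to be the more alike, so their p-values can be too small. The p-values rest on the spread between libraries within the groups. Each library of a group came from another pool, so for genotype this is a spread between pools of mice. In the comparison by replicate number both libraries of a pool are on the same side and are counted as independent.

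As a whole the 36 genes took 1.56% to 2.49% of the reads in the cDC1 WT libraries and 3.90% to 4.23% in cDC1 KO. In cDC2 the share was 3.05% to 3.57% in WT and 3.10% to 3.81% in KO. The lowest cDC1 KO library was thus above every library of the other groups, and the cDC1 WT libraries were below all others. In bulk libraries, a smaller number of cells that express a gene and less RNA per cell cannot be told apart. Per kilobase of gene length, the scale on which genes can be compared, the same 5 genes had the 5 highest mean levels in every group: Fos and Junb, which encode AP-1 subunits, Zfp36, Nr4a1 and Btg2. In cDC1 WT, Fos led with 1068 ± 381 CPM per kilobase (SD, n = 3), ahead of Junb with 772 ± 197. Zfp36 (569 ± 146) and Nr4a1 (563 ± 338) followed, and their order does not exceed the spread. In cDC1 KO, Fos (1803 ± 373), Zfp36 (1704 ± 14.1) and Junb (1676 ± 216) lay within 1 SD of Fos of each other. In cDC2, Junb, Zfp36 and Fos had 1423 ± 453, 1403 ± 247 and 1352 ± 318 CPM per kilobase in WT, which also lie within their spread. At the low end of cDC1 WT were Myc (5.68 ± 2.43) and Socs3 (5.31 ± 0.51). Each member had at least 111 reads in every library, the fewest being those of Cd69, so counting error is small beside the spread between libraries.

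The first comparison set the KO libraries of cDC1 against the WT libraries. By edgeR's quasi-likelihood test, 9 of the 36 genes rose and 0 fell, where 3.6% of all genes tested rose and 1.72% fell: Egr1, Dusp2, Socs3, Tnfaip3, Nfkbiz, Nfkbia, Zfp36, Ier2 and Ppp1r15a. They are all 3 of the NF-kB feedback genes, 1 of 3 MAP kinase phosphatases, 1 of 3 EGR genes, and Socs3, Zfp36, Ier2 and Ppp1r15a from other role groups. The log2 fold changes of these 9 ran from 1.45 to 3.59. The median log2 fold change over the 36 members was 1.01, against -0.00 over all genes tested, and 33 members had a positive value. For 24 members every KO library was above every WT library and for 0 every KO library was below, where 15.5% and 11.3% of all genes did so. Of these 9 calls, 8 held in all 24 alternative analyses, and that of Ppp1r15a ended without cDC1 WT replicate 2 and with only the 6 cDC1 libraries in the fit (adjusted p up to 0.0770).

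**Figure D1:**
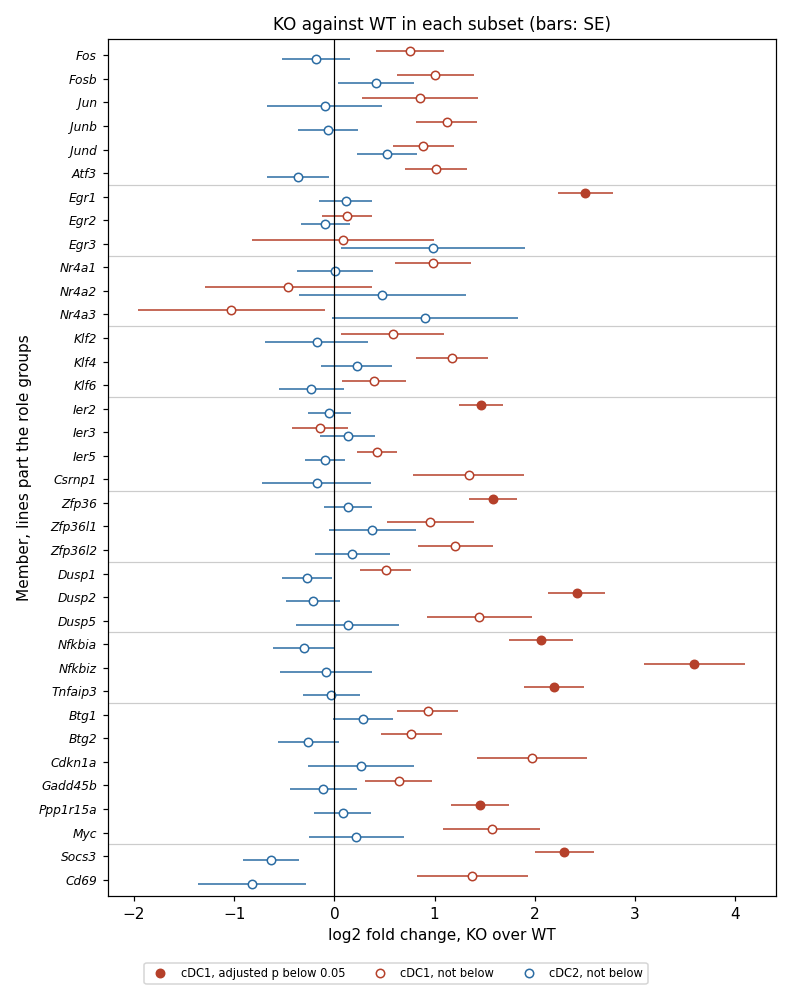
Log2 fold change of each of the 36 genes, KO over WT, in cDC1 (red) and cDC2 (blue); bars are standard errors, filled points have an adjusted p below 0.05, and grey lines part the role groups. The 9 filled points are all in cDC1 and lie between 1.45 and 3.59, while the cDC2 points run from -0.82 to 0.98.

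All 3 NF-kB feedback genes rose in KO cDC1. Nfkbia encodes the inhibitor IkB-alpha, which holds NF-kB in the cytoplasm (chromosome 12, bases 55489409 to 55492647, RefSeq on GRCm38.p6). It stood at 226, 296 and 287 CPM in the WT cDC1 libraries numbered 1, 2 and 3, and at 1355, 1022 and 987 CPM in cDC1 KO. Every KO library was thus above every WT library, and the log2 fold change was 2.06 (SE 0.32, adjusted p = 0.00220). Nfkbiz encodes the nuclear inhibitor family protein IkB-zeta, which is itself needed for some NF-kB target genes (chromosome 16, bases 55811375 to 55838954). Its level was 83.3, 26.9 and 23.6 CPM in WT and 797, 429.5 and 385 CPM in KO. This was the largest fold change among the members, 3.59 (SE 0.51, adjusted p = 0.00111), and again no libraries overlapped. Tnfaip3 encodes A20, a ubiquitin-editing enzyme that ends NF-kB signalling (chromosome 10, bases 19000910 to 19015410). It had 278, 172 and 146 CPM in WT and 1296, 740.2 and 678 CPM in KO (2.19, SE 0.30, adjusted p = 0.000936). For both Nfkbiz and Tnfaip3 the library numbered 1 was the highest of its group in WT and in KO.

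The promoters of 4 of the 9 genes hold a match to a motif of a factor known to drive immediate early genes, and their sequences show where. RefSeq's promoter table for GRCm38.p6 had entries for 29 of the 36 genes, 38 windows in all, and for 6 of the 9. The 250 bases before the start site were searched on both strands for 4 motifs: the NF-kB consensus, the CArG box of serum response factor, the CRE TGACGTCA and the AP-1 site TGANTCA. No matches overlapped. All 4 genes lie on the minus strand, and their windows are chr12:55492648-55492897 for Nfkbia, chr10:19015411-19015660 for Tnfaip3, chr7:28379229-28379478 for Zfp36 and chr7:45526269-45526518 for Ppp1r15a. They are printed 5′ to 3′ in the direction of transcription, up to the base before the start site, with the matches in capitals, and were chosen because they hold a match.
Nfkbia: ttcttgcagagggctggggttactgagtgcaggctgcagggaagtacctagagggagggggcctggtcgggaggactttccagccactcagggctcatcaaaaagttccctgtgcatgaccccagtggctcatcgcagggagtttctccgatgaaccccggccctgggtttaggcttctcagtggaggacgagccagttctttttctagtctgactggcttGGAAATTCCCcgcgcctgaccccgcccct
Tnfaip3: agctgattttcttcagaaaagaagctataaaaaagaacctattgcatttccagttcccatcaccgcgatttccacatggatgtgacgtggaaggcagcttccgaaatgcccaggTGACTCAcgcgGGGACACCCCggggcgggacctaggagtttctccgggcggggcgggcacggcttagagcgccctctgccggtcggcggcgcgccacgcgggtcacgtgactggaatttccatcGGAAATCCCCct
Zfp36: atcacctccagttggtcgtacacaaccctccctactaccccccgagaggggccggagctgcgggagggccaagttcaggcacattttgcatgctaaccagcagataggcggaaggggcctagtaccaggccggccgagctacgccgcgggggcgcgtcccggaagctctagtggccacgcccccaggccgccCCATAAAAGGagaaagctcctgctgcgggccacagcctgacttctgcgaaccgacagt
Ppp1r15a: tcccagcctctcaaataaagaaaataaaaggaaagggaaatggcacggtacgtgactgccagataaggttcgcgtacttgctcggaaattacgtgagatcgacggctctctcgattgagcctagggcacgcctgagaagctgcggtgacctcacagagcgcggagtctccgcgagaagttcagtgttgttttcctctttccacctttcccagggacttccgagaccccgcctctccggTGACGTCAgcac
Nfkbia has an NF-kB match, GGAAATTCCC, at positions -29 to -20 from the start site. Tnfaip3 has an AP-1 match at -136 to -130 and 2 NF-kB matches, GGGACACCCC at -125 to -116 and GGAAATCCCC at -12 to -3. Zfp36 has a CArG box, CCATAAAAGG, at -58 to -49, and Ppp1r15a has a CRE at -12 to -5. The windows of Dusp2 and Socs3 hold none of these letters. Over the windows of the members, 5 of 38 hold the NF-kB consensus, 6 the CArG box, 3 the CRE and 3 the AP-1 site, and 4 of the 6 with a CArG box are windows of Egr2. Over all 32851 promoters of the table the shares are 3.90%, 1.47%, 1.55% and 6.75%. A match describes the letters and does not show that a factor binds there.

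Among the MAP kinase phosphatases, 1 of 3 rose. Dusp2 encodes a nuclear phosphatase of ERK and p38 that is abundant in immune cells (chromosome 2, bases 127336159 to 127338377). It had 215, 136 and 139 CPM in cDC1 WT and 1069, 768 and 774 CPM in cDC1 KO. The KO libraries were all far above the WT ones, with a log2 fold change of 2.42 (SE 0.28, adjusted p = 0.000293). Dusp5, a nuclear phosphatase specific to ERK, had 310.2, 91.8 and 84.1 CPM in WT and 629, 355 and 338 CPM in KO. These libraries did not overlap either, but the change did not pass (1.44, SE 0.52, adjusted p = 0.153). Dusp1 had a value of 0.51 (SE 0.25, adjusted p = 0.304), and its libraries overlapped.

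Of the 3 EGR genes, which encode zinc finger transcription factors, Egr1 rose. It had 272, 233 and 181 CPM in cDC1 WT and 1217, 1390.4 and 1281 CPM in cDC1 KO (2.50, SE 0.28, adjusted p = 0.000184). This was the smallest adjusted p of the 36, and the lowest KO library was more than 4 times the highest WT library. Egr2 (0.12, SE 0.25, adjusted p = 0.830) and Egr3 (0.09, SE 0.91, adjusted p = 0.972) did not pass. The mean of Egr3 rested on 1 library in each group: it stood at 429, 44.3 and 31.2 CPM in WT and at 353, 95.9 and 87.6 CPM in KO.

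Socs3, whose product blocks JAK kinases and so limits STAT3 signalling (chromosome 11, bases 117966079 to 117970336), had the lowest level per kilobase of all members in WT cDC1. Its level went from 15.9, 14.5 and 13.1 CPM in WT to 107, 56.2 and 50.2 CPM in KO (log2 fold change 2.29, SE 0.30, adjusted p = 0.000614). The KO library numbered 1 was the highest, and the lowest KO library was still above every WT library. Cd69, a lectin that keeps activated lymphocytes in tissue, had 6.10, 22.1 and 21.6 CPM in WT and 40.6, 43.2 and 45.4 CPM in KO. Here too every KO library was above every WT library, but the change did not pass (1.38, SE 0.55, adjusted p = 0.197).

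Zfp36 encodes tristetraprolin, which binds AU-rich elements and destabilises the mRNAs of TNF and other cytokines (chromosome 7, bases 28376784 to 28379228). It had 1274, 976 and 762 CPM in cDC1 WT and 2981, 3031 and 3008 CPM in cDC1 KO (1.58, SE 0.24, adjusted p = 0.00198). The KO libraries agreed closely with one another and lay far above WT. Its relatives Zfp36l1 (0.96, SE 0.44, adjusted p = 0.260) and Zfp36l2 (1.20, SE 0.37, adjusted p = 0.0913) did not pass. Ier2, a nuclear protein of the immediate early response (chromosome 8, bases 84661331 to 84662852), had 205, 198 and 183 CPM in WT and 534, 526 and 549 CPM in KO (log2 fold change 1.46, SE 0.22, adjusted p = 0.00170). The libraries lay close together within each group, with SDs of 11.5 and 11.6 CPM, and the groups did not overlap. Of the other IER and CSRNP genes, Csrnp1 (1.34), Ier5 (0.42) and Ier3 (-0.14) did not pass.

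Ppp1r15a encodes GADD34, a phosphatase subunit that restores translation after stress (chromosome 7, bases 45522917 to 45526268). It had 330.1, 176 and 131 CPM in cDC1 WT and 573, 609.7 and 558 CPM in cDC1 KO (1.45, SE 0.29, adjusted p = 0.0111). The WT library numbered 1 was the nearest to KO but still below it. RefSeq's span of Ppp1r15a overlaps that of Tulp2, and the spans of Egr2, Nr4a2 and Csrnp1 also overlap another gene. Whether the counting used strand is not given in the sources used here, so reads in the shared stretches cannot be told apart. Of the other growth and stress genes, 0 of 5 passed. Cdkn1a, a cell cycle inhibitor, came nearest with 56.8, 22.5 and 21.1 CPM in WT and 199, 102 and 93.2 CPM in KO (log2 fold change 1.97, SE 0.55, adjusted p = 0.0596). The antiproliferative genes Btg1 (0.93) and Btg2 (0.77), Gadd45b (0.64) and Myc (1.57) had positive values too.

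None of the 6 AP-1 and ATF genes passed, although all 6 values lay between 0.76 and 1.12. Junb, which had 1829, 1293 and 1139 CPM in cDC1 WT and 3535, 2789 and 2928 CPM in cDC1 KO, missed the threshold narrowly (1.12, SE 0.30, adjusted p = 0.0539). Fos overlapped between the genotypes, with 1341, 2877 and 2487 CPM in WT and 2873, 4206 and 4242 CPM in KO (log2 fold change 0.76, SE 0.34, adjusted p = 0.257). The 3 NR4A genes encode orphan nuclear receptors that antigen receptor signals induce, and 0 of 3 passed: Nr4a1 had 0.99 (SE 0.38), Nr4a2 -0.46 (SE 0.83) and Nr4a3 -1.03 (SE 0.93). The 3 KLF genes, zinc finger factors of cell state and trafficking, did not pass either, with values of 1.17 for Klf4, 0.58 for Klf2 and 0.39 for Klf6.

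**Figure D2:**
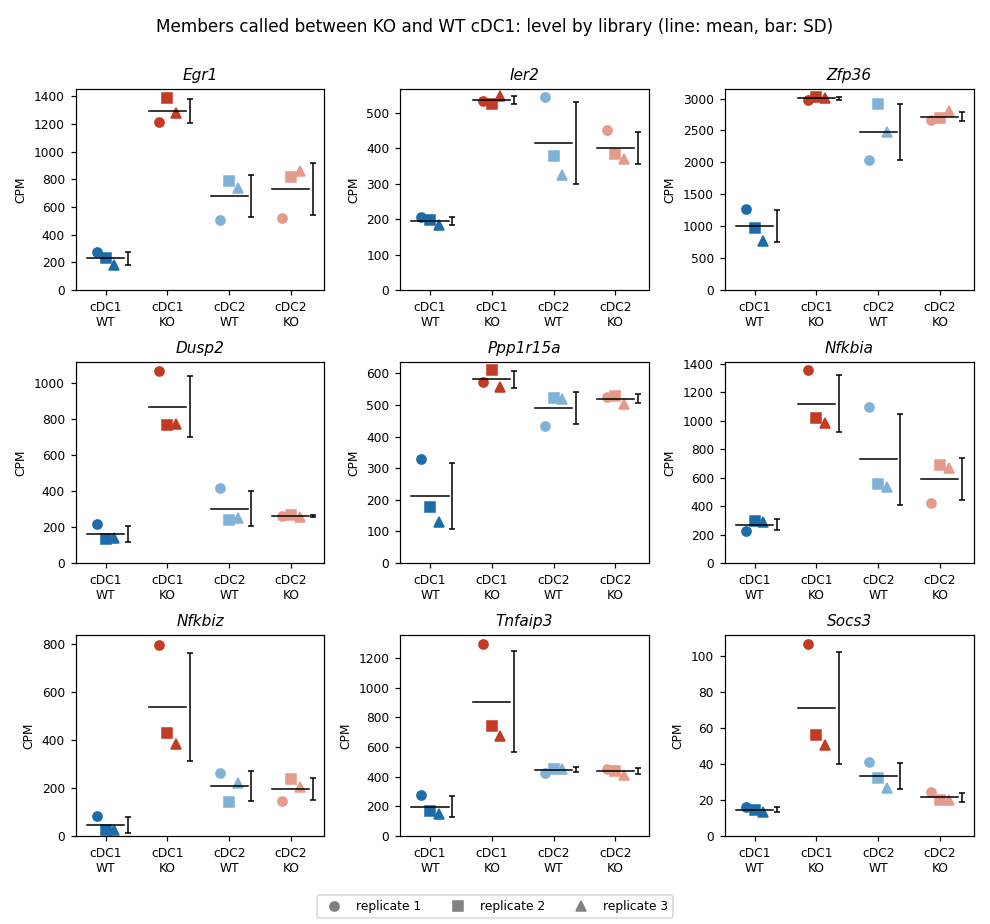
Level in CPM of the 9 genes that rose in KO cDC1, in every library of the 4 groups; the marker shape gives the replicate number, the line is the group mean and the bar its SD (n = 3). In each panel the 3 cDC1 KO libraries lie above the 3 cDC1 WT libraries, as for Egr1 at 1217 to 1390.4 against 181 to 272 CPM.

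By replicate number, the direction in cDC1 was the same for most members. In the pair of libraries numbered 1, 31 of the 36 genes were higher in KO, with a median log2 ratio of 0.95. In the pair numbered 2 and in the pair numbered 3 all 36 were higher, with medians of 1.23 and 1.54. Over all genes the share higher in KO was 53.9%, 50.9% and 52.2% in these pairs. With only the libraries numbered 2 and 3, which differ less from each other than from library 1, 32 of the 36 genes rose and 0 fell. In that fit 24.9% of all genes tested rose and 22.9% fell. Its median SE over all genes tested was 0.196, against 0.334 with all libraries. The 4 members that did not pass were Egr2 (0.03), Klf2 (0.33), Klf6 (0.08) and Ier3 (0.25). Nr4a2 (1.45, adjusted p = 7.96e-05) and Nr4a3 (1.05, adjusted p = 0.000350) turned from below 0 to above it. In WT cDC1 Nr4a2 had stood at 929.9 CPM in the library numbered 1 and at 81.9 and 56.8 CPM in the others, against 394, 209 and 175 CPM in KO. Without cDC1 WT replicate 1 alone 23 of the 36 rose, and without cDC2 WT replicate 1 alone, which enters through the shared estimate of the spread, 14 rose, where 11.8% and 4.58% of all genes rose. DESeq2 on all libraries called 17 higher and 0 lower, where it called 5.64% of all genes higher.

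Libraries also differed in how level related to gene length, and in cDC1 this trend moved with genotype in the libraries numbered 2 and 3. Spearman's correlation across genes between length and a library's deviation from the mean of all libraries was 0.447, -0.242 and -0.335 in the WT cDC1 libraries numbered 1, 2 and 3, against 0.303, 0.411 and 0.320 in KO. Genes within a library are not independent, so these are descriptions. The median length of the 36 members was 2438 bases, near the 2644 of all genes tested. With the trend of each library removed, 11 of the 36 genes rose and 0 fell, and with only libraries 2 and 3 as well, 34 rose and 0 fell, where 4.49% and 19.2% of all genes rose.

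Markers of other cell types moved with genotype in cDC1, where 3.6% of all genes tested rose and 1.72% fell. All 7 cDC2 markers rose, and their summed level was 59.5 to 78.3 CPM in cDC1 WT, 505 to 510 CPM in cDC1 KO and 1991 to 2184 CPM in cDC2 WT. Of the 6 monocyte markers 3 rose, with sums of 92.5 to 154 CPM in WT and 581 to 724 CPM in KO, and most of that was the chemokine receptor gene Ccr2, at 525 ± 87.1 CPM in cDC1 KO and 75.2 ± 74.3 CPM in cDC2 WT. The 7 cDC1 markers summed to 4692 to 6009 CPM in WT and 4097 to 4464 CPM in KO, and 1 of them fell. Plasmacytoid dendritic cell markers summed to 138 to 164 CPM in WT and 132 to 155 CPM in KO, and erythroid markers to 26.8 to 237 and 21.7 to 99.1 CPM. Macrophage markers summed to 99.4 to 184 CPM in WT and 77.1 to 124 CPM in KO, B cell markers to 290.3 to 371 and 300.4 to 337 CPM. Neutrophil markers summed to 0.99 to 23.1 and 5.61 to 11.8 CPM, T cell markers to 6.38 to 9.23 and 3.90 to 6.71 CPM, and NK cell markers to 0.77 to 3.06 and 2.74 to 3.72 CPM. Of the plasmacytoid and the macrophage markers 1 each fell, and no marker of the other 5 lists passed. No marker of these 10 lists was at 0 in all libraries of a cDC1 group. The part of such cells in the rise of the 9 genes was not tested. For 7 of the 9 genes, all but Ier2 and Nfkbia, the lowest cDC1 KO library was above the highest cDC2 WT library. Tnfaip3, for example, had at least 678 CPM in cDC1 KO and at most 456 CPM in cDC2 WT, and Dusp2 at least 768 against at most 418 CPM. Over all genes, 25.5% had their cDC1 KO libraries above all cDC2 WT libraries and 23.9% below. The 9 genes had been called for a high level in cDC1 KO, so these values are a description. Of the 36 members 14 were above and 3, Egr2, Ier3 and Cd69, were below.

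Genes related to the 36 were described in the same way. In KO cDC1 3.6% of all genes tested rose and 1.72% fell, which holds beside each count here. Of 24 kinases and factors that act upstream, such as Srf, Creb1 and the ERK kinases, 1 rose and 0 fell, a share near that of all genes. It was Elk3, a partner of serum response factor, which went from 14.8 ± 8.33 to 36.2 ± 3.73 CPM (1.29, SE 0.31, adjusted p = 0.0316). Of the 14 further AP-1, MAF and phosphatase genes tested, 0 passed in either direction. Among 27 other rapid response genes tested, 4 rose and 0 fell, Tnf, Ccl3, Bhlhe40 and Id3. Tnf, the cytokine whose mRNA tristetraprolin binds, had 56.1, 53.5 and 48.6 CPM in WT and 567, 324 and 335 CPM in KO (2.95, SE 0.51, adjusted p = 0.00416). Ccl3, a chemokine gene, had 29.6 ± 5.17 and 79.9 ± 7.24 CPM (1.43, SE 0.32, adjusted p = 0.0228), and the circadian repressor gene Bhlhe40 had 78.4 ± 67.0 and 325 ± 81.7 CPM (2.05, SE 0.50, adjusted p = 0.0313). Id3 stood near the floor, at 0.64 ± 0.27 and 2.02 ± 0.27 CPM (1.65, SE 0.37, adjusted p = 0.0214). In cDC2 WT, Bhlhe40 had 1004, 581 and 519 CPM and Elk3 105, 90.9 and 79.0 CPM, all above the cDC1 KO libraries. Ccl3 had 52.3, 151 and 133 CPM there, and Tnf had 157, 50.7 and 42.3 CPM, below cDC1 KO. The part of other cells in these rises was not tested. Of 11 heat shock genes 0 passed between the genotypes in cDC1 or in cDC2. In cDC1 7 of them had a positive value, and in cDC2 all 11 had a negative one, from -1.91 to -0.06 with a median of -0.83. No test compared these shares with that of the 36 genes.

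In cDC2 the same comparison gave no call. By edgeR, 0 of the 36 genes and 0% of all genes tested passed, while 271 of all genes had an unadjusted p below 0.05, and DESeq2 and limma-voom likewise called 0, with 394 and 270 genes at an unadjusted p below 0.05. The median log2 fold change over the members was -0.04, against 0.02 over all genes. Every adjusted p was 1. Nfkbia, for example, had 1095, 554 and 538 CPM in cDC2 WT and 419.8, 690.4 and 666 CPM in cDC2 KO, so that the libraries overlapped, with the library numbered 1 the highest of WT and the lowest of KO. Egr1 had 505, 789.9 and 735 CPM in WT and 518, 814 and 861 CPM in KO (0.11, SE 0.26). The libraries numbered 1 were the lowest of both groups, and the genotypes overlapped. Tnfaip3 had 427, 456 and 456 CPM in WT and 455, 440.4 and 415 CPM in KO, so that the groups overlapped. For 1 gene, Fosb, all KO libraries were above all WT libraries, and for 1, Socs3, all were below, where 3.33% and 2.56% of all genes did so. Socs3 had 40.9, 32.0 and 26.7 CPM in WT and 24.5, 19.8 and 19.97 CPM in KO (-0.63, SE 0.28, adjusted p = 1). By replicate number, 18, 15 and 24 of the 36 genes were higher in KO, where 49.8%, 49.7% and 53.4% of all genes were.

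With only the libraries numbered 2 and 3 of all 4 groups in the fit, 2 of the 36 genes rose and 4 fell in cDC2. Of all genes 3.35% and 4.37% did so. Egr3 (0.78, adjusted p = 0.0148) and Dusp5 (0.49, adjusted p = 0.0237) rose. Atf3 (-0.77, adjusted p = 0.00179), Cd69 (-0.71, adjusted p = 0.00277), Gadd45b (-0.56, adjusted p = 0.0163) and Socs3 (-0.57, adjusted p = 0.0406) fell. In the pair numbered 1 Atf3 and Gadd45b went the other way, Atf3 with 561 CPM in WT and 919 CPM in KO.

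The effect of genotype was then compared between the subsets directly, as the difference of the log2 fold changes, cDC1 minus cDC2. This difference was above 0 for 7 of the 36 genes and below 0 for 0, where 1.27% of all genes were called above 0 and 0.149% below: Socs3 (2.93, SE 0.41, adjusted p = 0.00272), Dusp2 (2.63, SE 0.39), Egr1 (2.39, SE 0.37), Nfkbiz (3.68, SE 0.67), Tnfaip3 (2.22, SE 0.41), Nfkbia (2.36, SE 0.44) and Ier2 (1.51, SE 0.31, adjusted p = 0.0284). Zfp36 (1.45, SE 0.34, adjusted p = 0.0576) and Ppp1r15a (1.37, SE 0.40, adjusted p = 0.162) did not pass. The median difference was 1.00, against -0.04 over all genes. With the mouse pool as a block, since each pool gave both subsets, 5 genes passed, 4 of them among the 7, where 0.775% of all genes were called above 0. Nfkbia, Tnfaip3 and Ier2 then lost the call. Without cDC1 WT replicate 2, 4 passed, and without cDC1 WT replicate 1, 11 did, where 0.743% and 2.71% of all genes were above 0. With only libraries 2 and 3, 30 passed, where 20.3% of all genes were above 0 and 18.1% below. The calls of Socs3, Dusp2, Egr1 and Nfkbiz held in all 24 alternatives, while that of Ier2 ended in 9, that of Tnfaip3 in 4 and that of Nfkbia in 3.

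Between the WT subsets, 15 of the 36 genes were lower in cDC1 than in cDC2, 0 were higher and 21 did not pass, where 10.9% of all genes were lower and 10.4% higher, with a median log2 fold change of -0.89 against 0.02 over all genes. Every cDC1 library was below every cDC2 library for 19 genes and above for 0, where 16.2% and 16.5% of all genes did so. This comparison shares the WT cDC1 libraries with that of KO and WT in cDC1, so the results are not independent.

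Cd69 differed most between the WT subsets: it had 6.10, 22.1 and 21.6 CPM in cDC1 and 77.8, 198 and 170.1 CPM in cDC2 (-3.16, SE 0.59, adjusted p = 0.00191). Every cDC1 library was far below every cDC2 library, and the libraries numbered 1 were the lowest of both groups. Nfkbiz had 83.3, 26.9 and 23.6 CPM in cDC1 and 264, 141 and 220.1 CPM in cDC2 (-2.23, SE 0.48, adjusted p = 0.00502). Klf4, a factor that part of the cDC2 lineage needs, had 226, 124 and 91.7 CPM in cDC1 and 244, 589 and 562 CPM in cDC2 (-1.66, SE 0.36, adjusted p = 0.00573). Its libraries numbered 1 were close, and those numbered 2 and 3 lay far apart. Egr1 followed with -1.57 (SE 0.27, adjusted p = 0.00103), and Nfkbia, Zfp36, Btg2, Ppp1r15a, Socs3, Tnfaip3, Atf3, Ier2, Dusp2, Dusp1 and Egr2 had values from -1.44 to -0.83. Btg2, an antiproliferative gene, had 1688, 1536 and 1381 CPM in cDC1 and 5368, 2984 and 2549 CPM in cDC2 (-1.24, SE 0.31, adjusted p = 0.0110). Egr2 had 224, 188 and 169 CPM in cDC1 and 472, 286 and 272 CPM in cDC2 (-0.83, SE 0.25, adjusted p = 0.0308). Dusp1, a phosphatase of JNK and p38, had 515, 866 and 811 CPM in cDC1 and 1396, 1459.8 and 1164 CPM in cDC2 (-0.88, SE 0.25, adjusted p = 0.0267). Atf3, a stress-induced repressor, is the exception among the 15 in that its libraries overlapped: it had 614, 419.7 and 353 CPM in cDC1 and 561, 1224 and 1267 CPM in cDC2 (-1.14, SE 0.31, adjusted p = 0.0197). None of the 4 members with a positive value passed, namely Nr4a3 (1.27), Nr4a2 (0.96), Egr3 (0.74) and Zfp36l1 (0.01), and all 4 had a negative value with only libraries 2 and 3. Blocked by mouse pool, 18 were lower and 0 higher, 13 of them among the 15, where 8.83% and 7.83% of all genes were, and Klf4 (adjusted p = 0.0506) and Atf3 lost the call. With only libraries 2 and 3, 32 were lower and 0 higher, where 24.3% of all genes were lower and 23.2% higher. A fit of the 6 WT libraries alone gave 9 lower, where 6.81% of all genes were. Of 25 alternatives, the call of Atf3 ended in 6, that of Dusp2 in 5 and those of Egr2 and Dusp1 in 4 each. Those of Tnfaip3 and Ppp1r15a ended in 2 each, and those of Btg2 and Klf4 in 1 each. The calls of Cd69, Nfkbiz, Egr1, Nfkbia, Zfp36, Socs3 and Ier2 held in all 25.

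Between the KO subsets, genes on both sides passed the test. Of the 36 genes, 4 were higher in cDC1 and 1 was lower, where 8.45% and 8.43% of all genes were, and the median log2 fold change was 0.19. For 11 members every cDC1 library was above every cDC2 library and for 3 below, where 25.1% and 22.7% of all genes did so. Dusp2 had 1069, 768 and 774 CPM in cDC1 KO and 262, 266 and 257 CPM in cDC2 KO (1.73, SE 0.28, adjusted p = 0.000998). Socs3 had 107, 56.2 and 50.2 CPM against 24.5, 19.8 and 19.97 CPM (1.73, SE 0.29, adjusted p = 0.00137). Both genes were below cDC2 in WT cDC1 and above it in KO cDC1, with no overlap of libraries in either genotype. Tnfaip3 (1.05, SE 0.29, adjusted p = 0.0270) and Egr1 (0.83, SE 0.26, adjusted p = 0.0482) were also higher, and Ier3, which encodes a regulator of survival, was lower. Ier3 had 32.1, 36.2 and 37.7 CPM in cDC1 KO and 96.6, 58.99 and 61.6 CPM in cDC2 KO (-1.03, SE 0.28, adjusted p = 0.0233). Nfkbiz (1.45, SE 0.47, adjusted p = 0.0501) and Nfkbia (0.92, SE 0.31, adjusted p = 0.0605) missed the threshold narrowly, with no overlap of libraries. Blocked by mouse pool, 3 were higher and 1 lower, where 5.97% and 5.54% of all genes were, and Tnfaip3 and Egr1 lost their calls. Of 25 alternatives, the call of Egr1 ended in 15, that of Ier3 in 6 and that of Tnfaip3 in 4. For Ier3 these include the removal of the length trend and leaving out any of the cDC1 KO libraries, with values up to -0.27 and adjusted p up to 0.194 by edgeR. Without cDC1 KO replicate 1, 2 genes passed in all, where 9.49% of all genes passed. Without cDC1 KO replicate 2, cDC1 KO replicate 3, cDC2 KO replicate 2 or cDC2 KO replicate 3, 3 passed, where 8.91%, 9%, 8.85% and 8.91% of all genes did. With only libraries 2 and 3, 16 were higher and 5 lower, where 25% and 24.2% of all genes were.

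**Figure D3:**
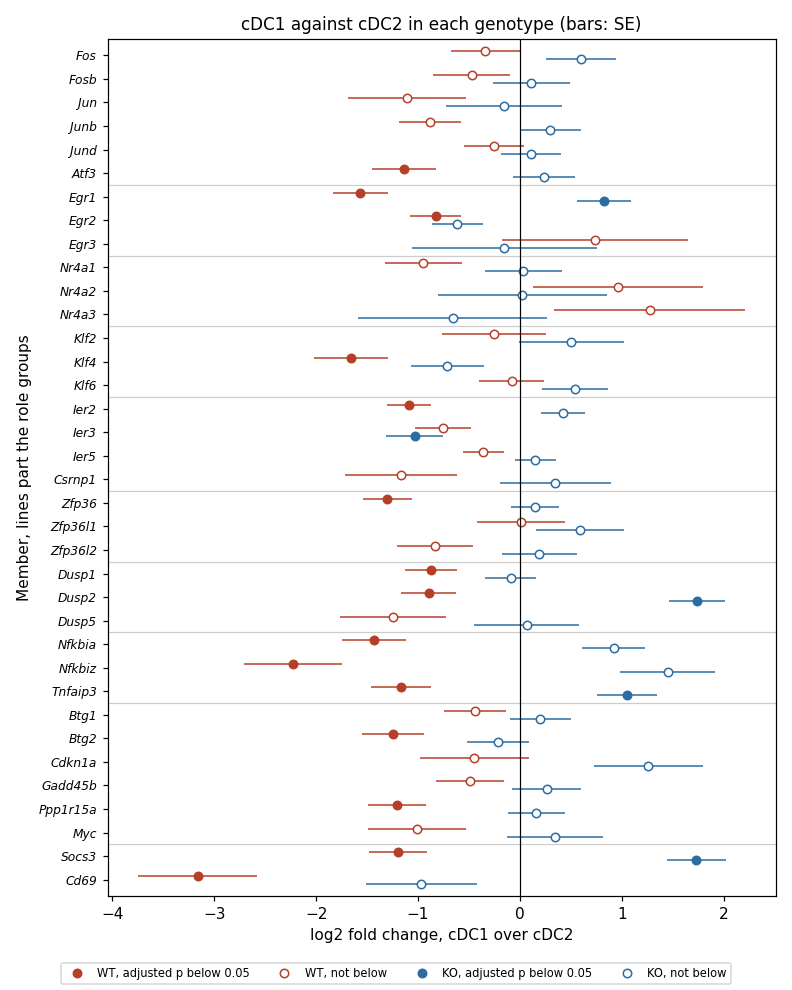
Log2 fold change of each of the 36 genes, cDC1 over cDC2, within WT (red) and within KO (blue); bars are standard errors, filled points have an adjusted p below 0.05, and grey lines part the role groups. The 15 filled WT points lie between -3.16 and -0.83, and the filled KO points are Dusp2, Socs3, Tnfaip3 and Egr1 to the right and Ier3 to the left.

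The 36 genes also differed by replicate number, and not all in one direction. With the group means held, libraries numbered 1 were higher than those numbered 2 and 3 for 5 of the 36 genes and lower for 4, where 1.59% and 1.04% of all genes were. Egr3 (2.21, SE 0.28, adjusted p = 0.00396), Csrnp1 (1.30, SE 0.12, adjusted p = 0.000564), Cdkn1a (1.29, SE 0.11, adjusted p = 0.000470), Dusp5 (1.18, SE 0.17, adjusted p = 0.00873) and Junb (0.58, SE 0.13, adjusted p = 0.0418) were higher. Jun (-1.43, SE 0.22, adjusted p = 0.0120), Cd69 (-1.25, SE 0.27, adjusted p = 0.0408), Myc (-1.05, SE 0.24, adjusted p = 0.0435) and Fos (-0.74, SE 0.14, adjusted p = 0.0258) were lower. Of 21 alternatives, the call of Junb ended in 14, that of Myc in 13, that of Cd69 in 12 and that of Fos in 10, and those of the other 5 genes ended in 2 each. Each pool gave a cDC1 and a cDC2 library, and the fit counts these as independent, so its p-values can be too small. The structure by number was known from earlier work on these data, so this describes it and is not independent evidence of it.

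Jun had 219 CPM in the cDC1 WT library numbered 1, against 1296 and 1086 CPM in those numbered 2 and 3. In the other groups it had 835 against 1938 and 1926 CPM in cDC1 KO, 1149 against 2414 and 2033 CPM in cDC2 WT, and 898 against 2147 and 2190.2 CPM in cDC2 KO. The library numbered 1 was the lowest in all 4 groups, and the same held for Fos, Klf2 and Cd69. Klf2, a factor of quiescence and trafficking, missed the threshold (-1.12, SE 0.27, adjusted p = 0.0531). Csrnp1 had 446 against 197 and 158 CPM in cDC1 WT, 1057 against 489.8 and 479 CPM in cDC1 KO, 1092 against 372 and 335 CPM in cDC2 WT, and 827 against 378 and 388 CPM in cDC2 KO. In every group the library numbered 1 was about 2 to 3 times the others, and Cdkn1a, Dusp5 and Egr3 were also highest in it in all 4 groups. Myc, a driver of growth, was low throughout and had 7.04, 18.1 and 15.7 CPM in cDC1 WT, 21.2, 49.3 and 50.7 CPM in cDC1 KO, 26.1, 31.7 and 24.4 CPM in cDC2 WT, and 12.3, 39.5 and 44.0 CPM in cDC2 KO. The library numbered 1 was the lowest in 3 of the 4 groups. Nr4a2 (1.53, SE 0.56, adjusted p = 0.142) and Nr4a3 (1.85, SE 0.60, adjusted p = 0.110) did not pass. Their libraries numbered 1 were above the others in 3 groups and below in cDC2 WT.

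**Figure D4:**
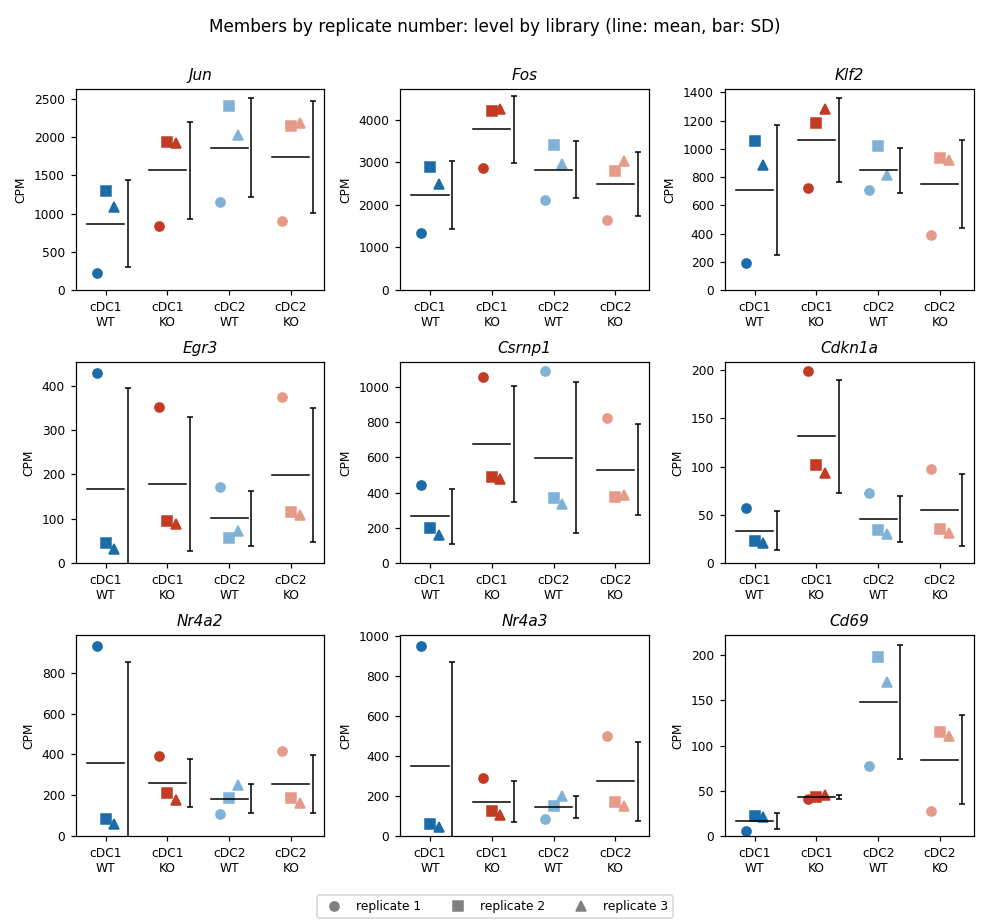
Level in CPM of 9 of the genes that vary with replicate number, in every library of the 4 groups; the marker shape gives the replicate number, the line is the group mean and the bar its SD (n = 3). Library 1 is the lowest in all groups for Jun, Fos, Klf2 and Cd69 and the highest in all for Egr3, Csrnp1 and Cdkn1a, while Nr4a2 and Nr4a3 reach 929.9 and 949 CPM in cDC1 WT replicate 1.

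The size of these differences was also counted. In cDC1 KO 8 of the 36 genes differed by more than 2-fold between library 1 and the mean of the others, against 5.22% of all genes. In cDC1 WT it was 18 of 36 against 31.2%, in cDC2 WT 11 against 24.3% and in cDC2 KO 10 against 17.2%. Between libraries 2 and 3, 0 of the 36 genes differed by that much in any group, where 4.76% of all genes did in cDC1 WT, 3.53% in cDC1 KO, 18.7% in cDC2 WT and 3.27% in cDC2 KO. The shares of all genes come from log CPM with a prior count of 2, and those of the members from plain CPM. Each member had at least 111 reads in every library, while the genes tested include some with fewer. Other genes moved with the number as well. Over all genes tested, 1.04% were lower in libraries numbered 1 and 1.59% higher. Of 11 heat shock genes 6 were lower in libraries numbered 1 and 0 higher, with a median of -1.19. Hspa1b, which encodes an inducible HSP70 chaperone, had 40.9, 7106 and 5440.0 CPM in cDC1 WT, 743, 8578 and 8852 CPM in cDC1 KO, 318, 11970.4 and 10349 CPM in cDC2 WT, and 23.4, 4186 and 4130.2 CPM in cDC2 KO (-5.58, SE 0.70, adjusted p = 0.00408). Its level in libraries 2 and 3 was over 10 times that in library 1 in every group. Erythroid markers (4 of 5 lower in libraries numbered 1), neutrophil markers (3 of 6 tested) and macrophage markers (3 of 8) moved with the number too. Their part in the differences of the 36 genes was not tested. DESeq2 called 14 members higher and 5 lower in libraries numbered 1, where it called 7.37% and 5.22% of all genes. With only the 6 cDC1 libraries or only the 6 cDC2 libraries in the fit, 0 members passed, where 0% and 0.00774% of all genes did. In these fits each pool enters with 1 library. Without cDC2 WT replicate 1, 14 passed, where 5.08% of all genes did. Leaving out any of 8 other libraries left 5, of which 4 were higher and 1, Jun, was lower. The share of all genes that passed was 0.648% and 0.853% without cDC1 WT replicate 2 and 3, 0.751% and 0.662% without cDC1 KO replicate 2 and 3, 1.49% without cDC2 WT replicate 2, and 0.547%, 0.527% and 0.512% without cDC2 KO replicate 1, 2 and 3.

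**Figure D5:**
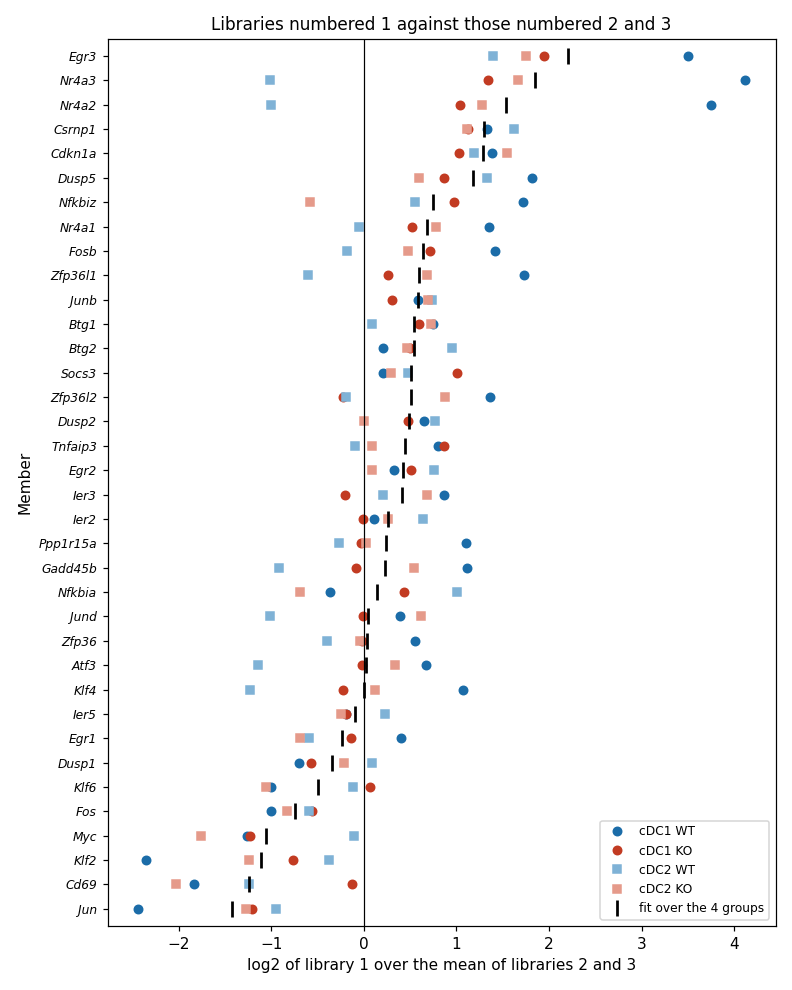
Log2 ratio of the library numbered 1 to the mean of those numbered 2 and 3, for each of the 36 genes in each of the 4 groups (points), with the fit over the groups as a black bar; genes are ordered by the fit, from Egr3 at 2.21 to Jun at -1.43. The points of Cdkn1a, Csrnp1, Jun and Fos lie on one side of 0 in all 4 groups, and those of Nr4a2, Nr4a3, Atf3 and Klf4 lie on both sides.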

How the data were processed

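RNA had been measured by sequencing in 12 libraries, 3 in each of 4 groups. The deposited values are whole-number read counts per gene with a gene length in bases, per the file headers, and featureCounts and the builds GRCm38 and mm10 are named in the submitters' processing notes. The aligner and the strand setting are not given in the sources used here. The files of single libraries hold the same counts as the series table, which was used, with 0 value columns left without a sample, and 25275 of 27179 gene identifiers matched a RefSeq symbol.

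Counts were tested with edgeR 4.0.16 in R 4.3.3: filterByExpr, TMM scaling, 4 group means over all 12 libraries, robust quasi-likelihood F tests, and Benjamini-Hochberg adjustment over 13415 genes with a threshold of 0.05. The comparison by replicate number added a term for number 1. SE was computed as the log2 fold change divided by the root of its F value, and CPM uses TMM-scaled totals. The procedure was also run on simulated counts drawn independently for each library. These lack the structure by replicate number, the length trend and the shared pools of the real libraries, so that run does not cover them. Alternatives were other scalings and filters, DESeq2 1.42.0, limma-voom (limma 3.58.1), a per-library length trend removed by loess (span 0.3), libraries left out, replicate blocks and smaller sets of libraries. Of these, number 1 as a term and libraries 2 and 3 with the length trend removed were chosen after seeing the data. The other alternatives were planned, but earlier results had already shown that libraries numbered 1 stand apart. Each mouse pool gave both subsets per the labels, so the pool pairs cDC1 with cDC2. Over all genes tested the correlations of deviations ran from -0.20 to -0.07 in WT and from 0.14 to 0.26 in KO. Over the 36 genes they ran from -0.17 to 0.43 in WT and from 0.65 to 0.73 in KO. The main tests leave this pairing out. All 36 members are described, per-library values being given mainly for those called in a comparison, and of each further list the genes called between genotypes are named. The members and all lists were chosen with earlier results of these data known.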

Additional observations from a re-analysis of the deposited data

Results flagged for a closer look

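For 7 genes the effect of genotype differed between the subsets by a test of the difference itself, as log2 fold change in cDC1 minus that in cDC2 (edgeR's quasi-likelihood test, adjusted over all genes tested). For Socs3 the difference was 2.93 (adjusted p = 0.00272), from 2.29 in cDC1 and -0.63 in cDC2. For Dusp2 it was 2.63 (adjusted p = 0.00379), from 2.42 and -0.21. For Egr1 it was 2.39 (adjusted p = 0.00556), from 2.50 and 0.11. Nfkbiz had 3.68 (adjusted p = 0.0140), Tnfaip3 2.22 (adjusted p = 0.0162), Nfkbia 2.36 (adjusted p = 0.0172) and Ier2 1.51 (adjusted p = 0.0284). In all 7 the cDC1 KO libraries lay above the cDC1 WT libraries, and in none of them was the difference within cDC2 called. With the mouse pool as a block, since each pool gave both subsets, Nfkbia, Tnfaip3 and Ier2 lost the call, and over 24 alternatives that of Ier2 ended in 9.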

How the results depend on the processing

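Over all alternatives, single fold changes of members kept their side of the threshold in 4685 cases, some of which turned sign without a call. They passed newly in 316, no longer passed in 127 and turned sign, past the threshold, in 20. The counts below are of the 36 genes called, higher and lower together. For KO against WT in cDC1 (9), DESeq2 gave 17, libraries 2 and 3 only 32, these with the length trend removed 34, number 1 as a term 22, and leaving out 1 library 8 to 23. In cDC2 (0) these gave 0, 6, 7, 0 and 0 to 0. For the difference between subsets (7) libraries 2 and 3 gave 30, with the length trend removed 33, number 1 as a term 12, and leaving out 1 library 4 to 11. For cDC1 against cDC2 in WT (15) these gave 32, 34, 23 and 10 to 22, and the 6 libraries alone 9. In KO (5) they gave 21, 21, 9 and 2 to 7, and the 6 libraries alone 9. Over all genes, libraries 2 and 3 only called 6438, 1039, 5157, 6391 and 6620 of 13461 in these 5 comparisons. With the length trend also removed, 5178, 1153, 3787, 6400 and 6077 were called. Number 1 as a term called 1001, 0, 282, 3492 and 2957 of 13415. The 6 libraries alone called 1537 of 12578 in WT and 4172 of 12874 in KO. For replicate number 1 (9), DESeq2 gave 19, the cDC1 libraries alone 0, the cDC2 libraries alone 0, and leaving out 1 library 5 to 14. The fits of the cDC1 or the cDC2 libraries alone use fewer libraries, and each pool enters them with 1 library. For the others the cause was not tested.

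Sign turned for these members, with a call. For KO against WT in cDC1, Nr4a2 had 1.91 without cDC1 WT replicate 1 (leaving out each library in turn gave -0.97 to 1.91), 1.45 with libraries 2 and 3 only and 1.29 with the length trend also removed, Nr4a3 had 1.05 and 1.25 in the last 2, and Ier3 had 0.74 in the last. For the difference between subsets, Nr4a2 had 1.79 and 1.65, Nr4a3 1.19 and 1.45, and with the length trend removed Egr3 had 0.91 and Ier3 0.89. For cDC1 against cDC2 in WT, Egr3 had -0.77 and -0.94, Nr4a2 -1.65 and -1.68, Nr4a3 -1.67 and -1.85, and Zfp36l1 -0.98 and -1.03. The cause was not tested. With plain library totals in place of TMM, 140 of 144 group levels moved by less than 1 SD, the exceptions being Jund, Atf3, Ier2 and Zfp36 in cDC1 KO.

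The replicate number in the titles as a block gave 17, 0, 10, 22 and 7 calls in these 5 comparisons. Over all 13415 genes tested it gave 733, 0, 193, 3002 and 2430. KO and WT libraries of 1 number carry codes in their descriptions that end in the same digits, whose meaning the labels do not give. The labels name no source that these libraries share. The correlations of their deviations over all genes tested ranged from -0.07 to 0.11 in cDC1 and from -0.06 to -0.05 in cDC2, and over the 36 genes from 0.75 to 0.77 and from 0.08 to 0.38. The mouse pool as a block gave 5 for the difference, 18 in WT and 4 in KO. The calls it changed are those named above for Nfkbia, Tnfaip3, Ier2, Klf4, Atf3 and Egr1, besides 1 new call for the difference and 5 in WT and 1 in KO. With 3 pools a group and library 1 apart from the others, a p that misses the threshold does not show that a gene did not differ.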
